A study of Rattus norvegicus with 2 samples.

Results

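The nuclear genes of the mitochondrial respiratory chain were followed across the cell types of rat cartilage. They were taken by name: every gene symbol that starts with Ndufa, Ndufb, Ndufc, Ndufs, Ndufv, Uqcr or Cox4 to Cox8, together with Sdha, Sdhb, Sdhc and Sdhd. The rule found 77 genes among the 18147 listed for both libraries, and each library on its own listed the same 77. By role they were 37 subunits of complex I (7 core and 30 accessory), 8 assembly factors of complex I, 4 subunits of complex II, 9 of complex III, 18 of complex IV (6 of them tissue-restricted isoforms), and Cox7a2l, a factor that joins complexes III and IV into a supercomplex.

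Both libraries held single cells dissociated with TrypLE from the cartilage of Lewis rats. One came from rats with no treatment, which the design text calls sham and which are called control here. The other came from rats given type II collagen with Complete Freund's Adjuvant and collected on day 14, the collagen-induced arthritis (CIA) model. How many animals went into either library is not given in the sources used here, and with 1 library per group no test of the treatment was possible. Each CIA to control value below compares those libraries, and its interval covers counting error only.

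The respiratory chain passes electrons from NADH (complex I) and succinate (complex II) through complex III to oxygen at complex IV, and pumps protons that drive ATP synthesis. Most of its subunits are encoded in the nucleus and imported, and a few core subunits of complexes I, III and IV are encoded in mitochondrial DNA. Osteoclasts, the multinucleated cells that resorb bone and calcified cartilage, arise from the macrophage lineage and are rich in mitochondria, whereas chondrocytes live in a tissue without vessels and are known for a largely glycolytic metabolism.

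The control matrix held 5456 cells with a median of 11873 UMIs, and the CIA matrix 8622 cells with a median of 10541 UMIs. A UMI marks 1 captured RNA molecule. After filtering, 5349 and 8409 cells were kept, and 52 barcodes occurred in both libraries. Cells were assigned to 6 types by marker genes. The gates held 36 osteoclasts in the control and 91 in the CIA library, 1030 and 2792 macrophages, 322 and 23 chondrocytes, 1363 and 1665 fibroblasts, 243 and 679 synovial lining cells, and 647 and 529 endothelial cells. A further 1530 control and 2498 CIA cells passed no gate. The CIA chondrocyte values therefore rest on 23 cells.

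Markers left out of the gates were read as a check. Ctsk, the collagen-degrading protease of osteoclasts, stood at 28824 and 48046 CPM (UMIs scaled to a total of 1e6) in the control and CIA osteoclasts and at 825 or lower in the other types. Lyz2, the lysozyme of macrophages, stood at 62910 and 78823 CPM in macrophages and at 8335 and 5446 in osteoclasts. Hapln1, a link protein of cartilage matrix, stood at 3029 and 5842 CPM in chondrocytes. The whole list of 12 chondrocyte markers summed to 33529 and 30727 CPM there, but its members moved in different directions. Ucma (1371 and 2282 CPM) and Acan (564 and 1017) were higher in the CIA library, like Hapln1. Chad (8487 and 3092 CPM) and Sox9 (352 and 136) were lower. The content of this gate thus differed between the libraries. The chondrocyte gate also held Col1a1, the fibrillar collagen of bone and fibrous tissue, at 21378 and 40143 CPM. That was close to the 30975 and 26342 of fibroblasts. The 5 osteoblast markers summed to 4348 and 3834 CPM in this gate, against at most 49.3 in any other type. All 5 were detected in the control chondrocytes, but Bglap, Dmp1 and Sp7 had no UMIs in the CIA chondrocytes. The CIA sum thus came from the remaining markers of that list alone. Whether bone-forming or fibrous cells contribute to the chondrocyte values was not tested. Col2a1, the main collagen of cartilage, gives the level at which a chondrocyte transcript was read in cells that do not make it: 124 CPM in control and 5.95 CPM in CIA macrophages, against 17444 and 15985 in chondrocytes.

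Summed over the 77 genes, the chain was highest in osteoclasts in both libraries. Its level there was 32805 CPM (95% counting interval 32422 to 33190) in the control and 36597 CPM (36342 to 36854) in the CIA library. That was 3.28% and 3.66% of all UMIs of the type. The other 5 types lay far lower and close together. Endothelium stood at 20079 and 19745 CPM, lining cells at 19805 and 18084, macrophages at 18120 and 20624, fibroblasts at 16692 and 17027, and chondrocytes at 14507 and 16893. Chondrocytes were the lowest type in both libraries, with the fibroblasts next above them. The order of endothelium, lining and macrophages differed between the libraries: macrophages were the lowest of those 3 in the control library and the highest in the CIA library. That order depends on the scaling: with TMM factors, which centre the typical gene between sums, macrophages were the highest of the 3 in both libraries (23037 and 25283 CPM) and lining cells stood at 17920 and 17119. With those factors the CIA fibroblasts (15933 CPM) also fell just below the CIA chondrocytes (15987). In the CIA library the intervals of chondrocytes (16402 to 17394) and fibroblasts (16974 to 17081) overlapped.

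**Figure D1:**
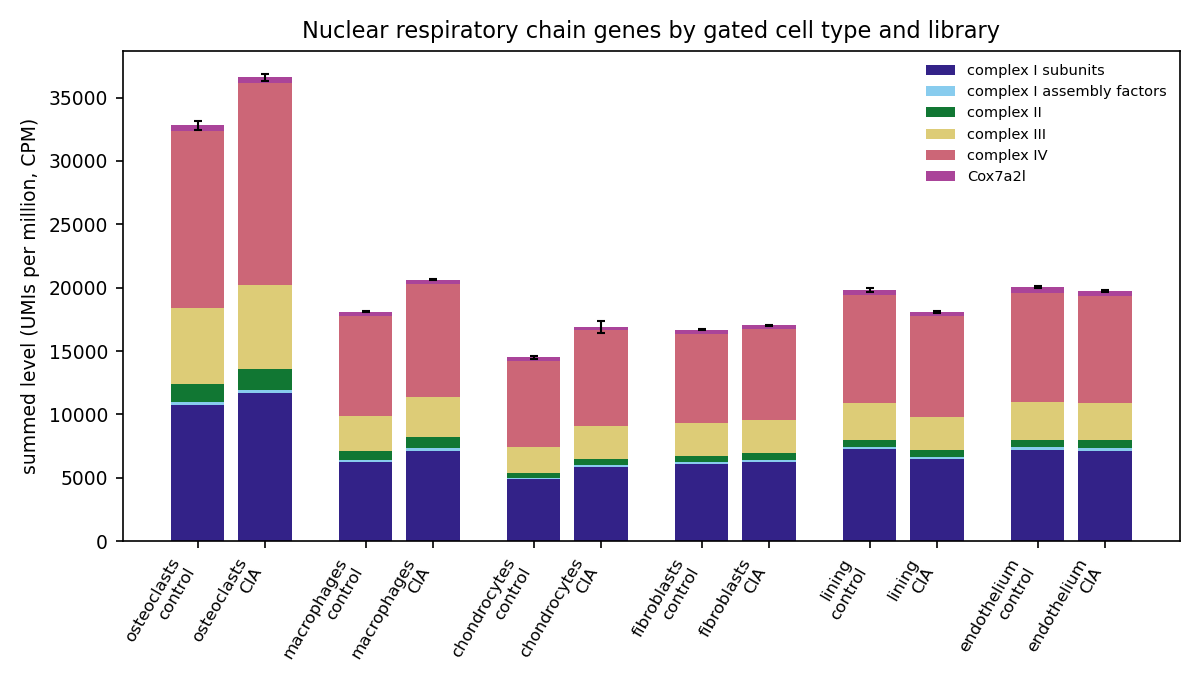
Summed level of the nuclear respiratory chain genes (CPM, y axis) in each gated cell type and library (x axis), stacked by complex, with bars for the 95% counting interval of the whole sum. The osteoclast columns reach 32805 (control) and 36597 CPM (CIA), and every other column lies between 14507 and 20624.

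The difference held cell by cell. The median osteoclast had a chain level of 32793 CPM in the control library (quartiles 28891 and 35915) and 36195 CPM in the CIA library (31643 and 40665). Of the macrophages, 7 of 1030 control cells (0.68%) and 9 of 2792 CIA cells (0.322%) lay above the osteoclast median of their library, and no cell of the other 4 types did. In the other direction 35 of 36 control and 89 of 91 CIA osteoclasts lay above the macrophage median. Osteoclasts also carried more RNA, with a median of 24202 and 22211 UMIs per cell against 13095 and 10162 in macrophages. In molecules per cell, the medians were 815 and 783 chain UMIs in osteoclasts and 212.5 and 198 in macrophages. Doublet calls (62 control and 166 CIA cells) had been removed, and the part of any remaining droplets with several cells was not tested.

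**Figure D2:**
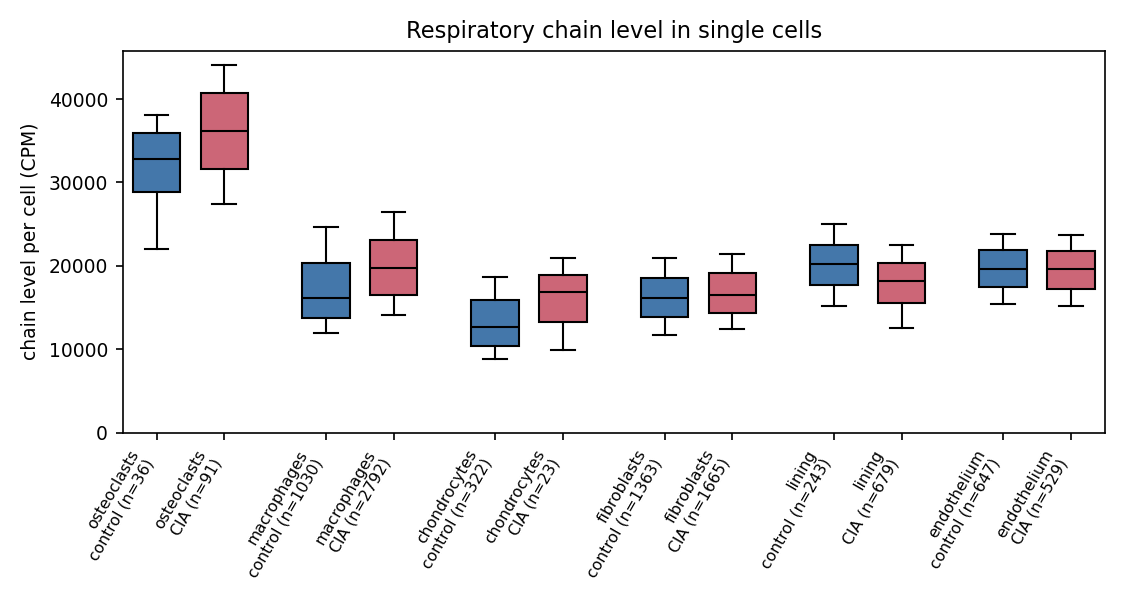
Chain level of single cells (CPM of the cell's own UMIs, y axis) by cell type and library (x axis, with the number of cells). Boxes span the quartiles around the median and whiskers run from the tenth to the ninetieth percentile, and the osteoclast boxes lie above the whiskers of every other type.

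The complexes did not take equal shares. Complex III made up 18.4% (control) and 18.1% (CIA) of the chain's UMIs in osteoclasts and between 14.4% and 15.9% in every other type. Complex II, which links the citrate cycle to the chain, made up 4.2% and 4.38% in osteoclasts, 3.75% and 4.06% in macrophages, and 2.44% to 3.3% in the remaining types. Complex I had its lowest share in osteoclasts (32.6% and 31.9%), against 33.6% to 36.7% elsewhere. Complex IV was more even, from 41.9% to 46.4% over all types. Cells high in complex I were also high in complex IV within each type, with Spearman correlations across cells of 0.452 to 0.757. These are descriptions: both values share the cell's own UMI total.

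Osteoclasts were set against macrophages of the same library, the type nearest in lineage. The chain sum was 1.81-fold higher in the control library (95% counting interval 1.79 to 1.83) and 1.77-fold higher in the CIA library (1.76 to 1.79). A gene was counted as higher when it was at least 2-fold higher with its interval wholly beyond 1.5-fold, and as measured with at least 100 UMIs over both sums. Of 70 measured members, 24 were higher in the control library, where 8.37% of all 7633 measured genes were. In the CIA library 22 of 70 were higher, against 8.09% of 9159 genes. No member was lower by that rule in either library. The median member differed by 0.83 on the log2 scale in the control library and by 0.79 in the CIA library, against 0.15 and 0.04 for all measured genes. The 2 libraries called 20 members in common, which is 83.3% of the control calls and 90.9% of the CIA calls. The counts depended on the scaling: TMM factors gave 7 and 14 higher members with chain ratios of 1.43 and 1.63, a total without the 50 most abundant genes gave 13 and 8 with 1.59 and 1.47, and unscaled UMIs per cell gave 59 and 69 with 2.88 and 3.6.

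By complex, the ratio of osteoclasts to macrophages was largest for complex III, at 2.17 in the control and 2.11 in the CIA library. Complex II followed with 2.03 and 1.91, then complex IV with 1.77 and 1.79 and complex I with 1.72 and 1.63. The assembly factors of complex I stood at 1.55 and 1.29. Cox7a2l had the smallest ratio of these groups, 1.27 (1.14 to 1.4) and 1.2 (1.12 to 1.28). The 13 mitochondrially encoded chain and ATP synthase subunits were summed for reference and gave 1.49 and 1.32. In both libraries the ratio of the nuclear sum was thus larger than that of the mitochondrially encoded sum.

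The member with the largest difference was Ndufa4, a small protein first assigned to complex I and now counted as a subunit of complex IV. Osteoclasts held it at 1150 CPM (control) and 1456 CPM (CIA), and macrophages at 286 and 314 CPM. The ratios were 4.02 (3.75 to 4.31) and 4.64 (4.45 to 4.83). Macrophages had the lowest Ndufa4 level of the 6 types in both libraries, while endothelium came second to osteoclasts with 794 and 829 CPM. Against endothelium the osteoclast ratio was therefore only 1.45 (1.35 to 1.55) and 1.76 (1.68 to 1.84), short of the 2-fold rule.

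Among complex III members, Uqcr10, a small accessory subunit, stood at 2003 and 2154 CPM in osteoclasts and at 685 and 777 CPM in macrophages. The ratios were 2.92 (2.78 to 3.08) and 2.77 (2.69 to 2.86). Uqcrfs1, the Rieske iron-sulfur protein that hands electrons to cytochrome c1, stood at 474 and 570 CPM against 191 and 211, ratios of 2.48 and 2.7. Uqcrc2, a core protein, was 2.28-fold higher in the control and 2.12-fold higher in the CIA library, and its partner Uqcrc1 was 1.98-fold and 1.93-fold higher, just short of the rule. Uqcrh, the hinge protein that docks cytochrome c, was also called in both libraries.

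In complex I the calls took in both the electron-carrying core and small accessory proteins. Ndufs1, the largest iron-sulfur subunit, stood at 65.3 and 101 CPM in osteoclasts against 25.2 and 31.8 in macrophages, ratios of 2.59 (1.92 to 3.43) and 3.18 (2.73 to 3.68). Ndufv1, which binds NADH, was 2.67-fold and 2.37-fold higher. Ndufs8 and Ndufs3 were the other core subunits called in both libraries, while Ndufs7 and Ndufv2 were not called in both. Of the accessory proteins, Ndufa3 was 2.53-fold and 2.79-fold higher and Ndufab1, the mitochondrial acyl carrier protein, 2.61-fold and 2.28-fold. Ndufb5, Ndufb6, Ndufb9 and the entry Ndufa10l1_2 completed the set.

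In complex II, Sdha, the flavoprotein that oxidises succinate, was 2.51-fold (2.07 to 3.03) and 2.78-fold (2.5 to 3.09) higher in osteoclasts than in macrophages. Sdhd, a membrane anchor, was called in both libraries as well. Sdhb, the iron-sulfur subunit, stood at 404 and 397 CPM in osteoclasts and at 228 and 249 in macrophages and stayed below 2-fold, as did the anchor Sdhc. Macrophages themselves held Sdhb above every remaining type, where it lay between 91.1 and 145 CPM.

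The assembly factors did not follow as a group. Ndufaf4, which acts early in complex I assembly, was 3.06-fold (2.12 to 4.31) and 2.32-fold higher in osteoclasts. Ndufaf1 was called in the CIA library alone, at 17.2 against 6.99 CPM. Ndufaf7, an arginine methyltransferase that acts in complex I assembly, was instead highest in macrophages, with 36 and 41 CPM against 33.8 and 30.7 in osteoclasts and 7.53 to 17.3 in the remaining types. It was the only measured member whose CIA interval lay wholly below 1 (0.749, 0.576 to 0.959), and in the control library its interval included 1 (0.94, 0.624 to 1.37).

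**Figure D3:**
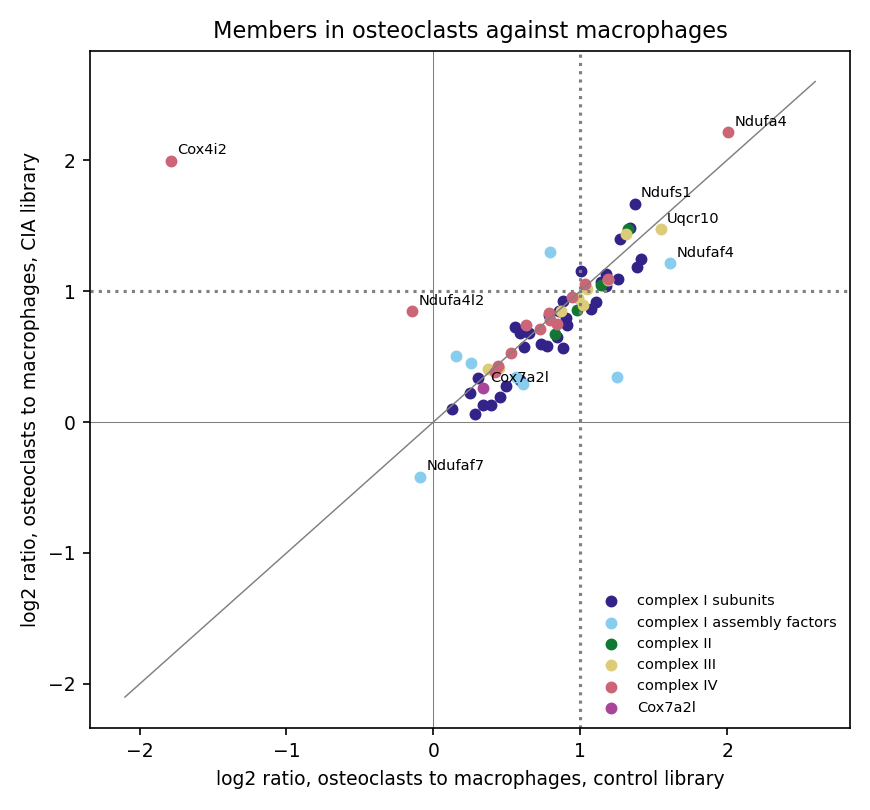
Each point is a member measured in both libraries, placed by its log2 ratio of osteoclasts to macrophages in the control (x axis) and CIA library (y axis), coloured by complex, with the diagonal drawn and dotted lines at 2-fold. Most points lie above 0 on both axes, Ndufa4 stands at the upper right, and Cox4i2, with 2 UMIs in the control osteoclasts, lies far from the diagonal.

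In CPM, the osteoclast excess over the other 4 types was larger against chondrocytes and fibroblasts than against endothelium. Against chondrocytes 45 of 65 measured members were higher in the control library (14.7% of all measured genes) and 39 of 62 in the CIA library (19.6%). Against fibroblasts the counts were 34 of 71 (9.58%) and 38 of 71 (10.2%), and against lining cells 18 of 66 (8.76%) and 37 of 71 (10.3%). Against endothelium they were 16 of 69 (6.81%) and 23 of 69 (8.68%). The chain sums were 2.26-fold and 2.17-fold higher than in chondrocytes, 1.97-fold and 2.15-fold than in fibroblasts, 1.66-fold and 2.02-fold than in lining cells, and 1.63-fold and 1.85-fold than in endothelium. On the log2 scale the median of all measured genes ran the other way against endothelium (-0.38 and -0.50), lining cells (-0.20 and -0.24) and fibroblasts (-0.18 and -0.28). Against chondrocytes it was -0.03 in the control and 0.34 in the CIA library. The order of the types therefore depends on the scaling. With TMM factors 50 members were higher against CIA endothelium, while no scaled alternative gave more than 45 against CIA chondrocytes. With those factors the chain stood at 16246 CPM in CIA endothelium, close to the 15987 of CIA chondrocytes and 15933 of CIA fibroblasts. In the control library they gave 17494, 15629 and 16142 CPM.

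Of 62 members measured in all of these comparisons, 6 were called higher in osteoclasts against all 5 types in both libraries, where 4.53% of the 2647 genes so measured were. They were Ndufa3 and Ndufv1 of complex I, Sdha and Sdhd of complex II, and Uqcr10 and Uqcrfs1 of complex III. Cox5a, a matrix-facing subunit of complex IV, was called against each type but macrophages. It stood at 972 and 1173 CPM in osteoclasts, 626 and 702 in macrophages, 436 and 453 in endothelium and 211 to 324 in chondrocytes, fibroblasts and lining cells. Sdhb was likewise called against chondrocytes, fibroblasts, lining cells and endothelium in the control library, with ratios of 4.44, 3.69, 3.13 and 3.04.

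Of the 72 members with at least 100 UMIs over the gated cells in each library, 56 had their highest level in osteoclasts in both. The 16 exceptions were 7 accessory subunits of complex I, 5 assembly factors, 3 isoforms and Cox7a2l. How many of all genes were highest in osteoclasts was not counted, and the 56 was not recounted with other scalings. Against endothelium alone, 84.1% (control) and 91.3% (CIA) of measured members were above 1, where 32.4% and 29.3% of all measured genes were. Ndufa8, an accessory subunit of complex I, was highest in endothelium, with 447 and 424 CPM against 290 and 278 in osteoclasts, ratios of 0.648 (0.568 to 0.737) and 0.657 (0.6 to 0.718) for osteoclasts to endothelium. Ndufb4, Ndufs4 and the entry Ndufv3_2 were also highest in endothelium in both libraries. Cox6b2, known as the testis form of Cox6b, was highest in fibroblasts (19.9 and 18.6 CPM) with 0 and 3 UMIs in osteoclasts.

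Among the 6 types, the complex IV isoforms Cox4i2 and Ndufa4l2 separated chondrocytes, fibroblasts and lining cells from the rest. A few cells of vessel walls, outside these types, also held both and are described at the end. Cox4i2 replaces the common Cox4i1 in some tissues and is known as an oxygen-sensitive form. Ndufa4l2 is a relative of Ndufa4 known to be induced by hypoxia. Cox4i2 was highest in chondrocytes, with 1073 CPM in the control (4476 UMIs) and 1360 in the CIA library (361 UMIs), and the 2 intervals, 1042 to 1105 and 1223 to 1507, did not overlap. Lining cells held 222 and 200 CPM and fibroblasts 172 and 202. The lining level depended on how the cells were taken. With clusters in place of the gates, the ratio of chondrocytes to lining cells for Cox4i2 rose from 4.83 to 17.0 in the control library. In the CIA library it went from 6.81 to 9.02. Endothelium held 12.7 and 11.7, macrophages 8.05 and 4.9, and osteoclasts 2.33 (2 UMIs) and 19.6 CPM (42 UMIs). Osteoclasts against macrophages gave 3.99 (2.77 to 5.64) in the CIA library, one of its 22 calls, and 0.29 (0.0347 to 1.07) in the control library. Whether the low values in macrophages, endothelium and osteoclasts are free RNA of other cells was not tested.

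Within a cell type, the share of Cox4i2 among the captured molecules of both Cox4 genes shows the balance directly. It was 61.9% in chondrocytes of the control library (exact binomial 95% interval 60.7 to 63.0) and 65.6% (61.5 to 69.6) in those of the CIA library. Fibroblasts had 17.5% and 20.7%, and lining cells 18.9% and 19.5%. It was at most 1.24% in macrophages, osteoclasts and endothelium. Cox4i1 ran the opposite way, from 1734 and 1914 CPM in osteoclasts to 662 and 712 CPM in chondrocytes. Chondrocytes were thus the only type of the 6 in which captured Cox4i2 outnumbered Cox4i1, in both libraries. No length correction was made, because the labels name a kit that counts 3' ends, but the barcodes are not built like that kit's, so the chemistry is uncertain. Levels of 2 genes may therefore differ through length or capture as well.

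Ndufa4l2 followed the same 3 types in another order. In the control library it stood at 371 CPM in chondrocytes, 312 in lining cells and 179 in fibroblasts. In the CIA library lining cells led with 454 CPM, then fibroblasts with 251 and chondrocytes with 203 (54 UMIs). Macrophages, osteoclasts and endothelium held 6.99 to 15.4 CPM. Its share of the Ndufa4 pair was 36.3% (34.6 to 38.0) in control lining cells and 48.2% (47.3 to 49.2) in the CIA ones, 25.7% and 32.1% in fibroblasts, and 53.2% (51.4 to 55.0) and 27.7% (21.5 to 34.5) in chondrocytes. The share was thus higher in the CIA library in lining cells and fibroblasts and lower in chondrocytes. With cells taken by cluster in place of the gates, the control ratio of lining cells to fibroblasts turned from 1.74 to 0.594 for Ndufa4l2. The control ratio of lining cells to macrophages fell from 40.4 to 14.6.

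**Figure D4:**
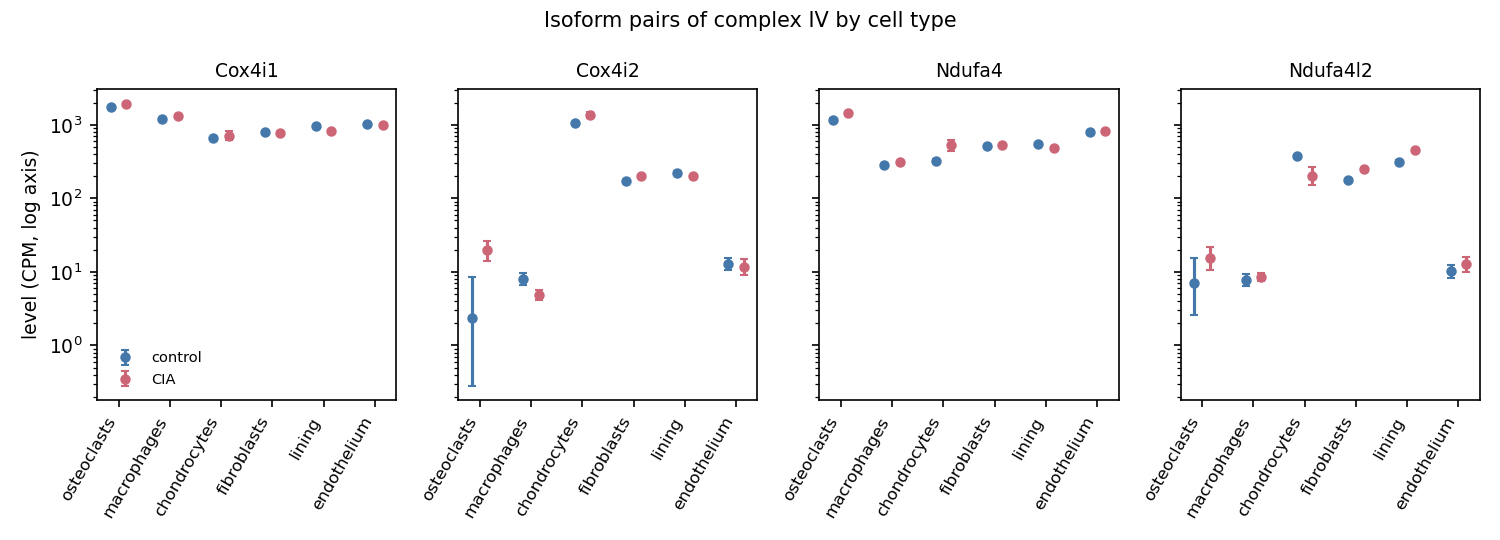
Level (CPM, log y axis) of Cox4i1, Cox4i2, Ndufa4 and Ndufa4l2 in the 6 cell types, with 95% counting intervals, for the control and CIA libraries. Cox4i1 and Ndufa4 are found in every type, while Cox4i2 and Ndufa4l2 lie at 172 CPM or above in chondrocytes, fibroblasts and lining cells and at 19.6 CPM or below in osteoclasts, macrophages and endothelium.

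The muscle forms of other subunits were close to absent: over all cells Cox6a2 had 104 and 72 UMIs, Cox7a1 24 and 43, and Cox8b 3 and 1. Their common partners Cox6a1 and Cox8a ranged from 793 to 2182 CPM and from 389 to 1593 CPM, each highest in osteoclasts. Some common subunits had very low counts too, such as Ndufa1 with 7 and 4 UMIs and Ndufs6 with 146 and 205 over all cells. Near-identical entries share reads in ways the counting may split, so the values of Cox6b1 and Cox6b1_2, Uqcrb and Uqcrb_2, Ndufv3 and Ndufv3_2, Ndufa10l1_2 and Cox7a2l2 are uncertain.

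Promoter sequence is shown for genes the comparisons turn on: the pair with opposite patterns (Ndufa4, highest in osteoclasts, and Ndufa4l2, near 0 there), and a complex II subunit and an assembly factor that each hold searched motifs. The 250 bases before the gene start come from RefSeq (build GRCr8, another build than the counts), 5′ to 3′ on the gene's strand, with motifs in capitals where found.
Ndufa4, chr4:40975560-40975809, minus strand: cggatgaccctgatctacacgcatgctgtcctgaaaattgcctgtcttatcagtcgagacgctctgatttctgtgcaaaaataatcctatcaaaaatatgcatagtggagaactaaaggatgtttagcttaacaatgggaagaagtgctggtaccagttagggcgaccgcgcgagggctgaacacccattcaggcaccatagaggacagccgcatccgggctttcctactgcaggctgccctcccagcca
Ndufa4l2, chr7:65241919-65242168, plus strand: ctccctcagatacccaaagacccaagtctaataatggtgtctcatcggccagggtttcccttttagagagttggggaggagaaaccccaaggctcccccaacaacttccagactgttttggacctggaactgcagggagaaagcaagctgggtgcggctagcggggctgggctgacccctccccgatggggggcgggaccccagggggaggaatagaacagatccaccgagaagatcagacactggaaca
Sdhb, chr5:158547684-158547933, plus strand, CATGCGC and CCGGAAG in capitals: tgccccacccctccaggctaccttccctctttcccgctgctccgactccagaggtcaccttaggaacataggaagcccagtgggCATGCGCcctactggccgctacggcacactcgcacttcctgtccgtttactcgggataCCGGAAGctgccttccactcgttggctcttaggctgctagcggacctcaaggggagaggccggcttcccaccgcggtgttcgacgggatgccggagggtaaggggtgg
Ndufaf4, chr5:43401545-43401794, plus strand, GCGCATG and its reverse complement, which overlap, in capitals: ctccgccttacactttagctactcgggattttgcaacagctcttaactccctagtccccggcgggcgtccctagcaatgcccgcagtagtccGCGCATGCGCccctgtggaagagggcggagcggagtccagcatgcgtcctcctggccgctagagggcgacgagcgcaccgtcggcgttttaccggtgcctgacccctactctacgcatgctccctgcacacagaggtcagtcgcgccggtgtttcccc

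Of the 77 members, 64 had a RefSeq promoter by symbol. On either strand, the ETS-type motif CCGGAAG occurred in 16 of them (25%), against 7.74% of all 27457 promoters of the same length. GCGCATG, which is part of the palindromic NRF1 motif, so that its 2 strands can overlap, occurred in 9 (14.1%, against 3.45%), and ACGTG, the core of the hypoxia response element, in 15 (23.4%, against 16.9%). Neither Ndufa4 nor Ndufa4l2 held any of the 3 in this window. Among the 20 members called higher in osteoclasts than in macrophages in both libraries, 18 had a promoter and 5 of those held the ETS-type motif, 2 the NRF1 core and 2 ACGTG. Of the other 46 promoters, 11, 7 and 13 held them.

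Between the CIA and control libraries no member passed the rule of size in any cell type. That is 0 of 62 measured in osteoclasts, where 2.85% of all measured genes passed in either direction, 0 of 71 in macrophages (4.32%) and 0 of 62 in chondrocytes (5.18%). It is likewise 0 of 71 in fibroblasts (1.29%), 0 of 71 in lining cells (3.6%) and 0 of 70 in endothelium (1.76%). The differences present were smaller than the rule. The chain sum was 1.12-fold (1.1 to 1.13) that of control in osteoclasts and 1.14-fold (1.13 to 1.14) in macrophages. In chondrocytes it was 1.16-fold (1.13 to 1.2), but 1.02-fold with TMM factors. It was 1.02-fold in fibroblasts (0.987-fold with TMM factors), 0.983-fold in endothelium and 0.913-fold (0.906 to 0.921) in lining cells. With 1 library per group, the spread between animals is unknown, and none of these ratios can be set against it.

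The gates did not draw on the same cells in both libraries. Of the gated macrophages, 54.3% of the control cells fell in 1 cluster (number 4) that held 11.8% of the CIA cells, and 49.9% of the CIA cells fell in another (number 5) that held 12.8% of the control cells. Of the lining cells, 48.6% of the control cells fell in cluster 11 and 57.7% of the CIA cells in cluster 12. The part of this shift in the macrophage and lining ratios was not tested.

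**Figure D5:**
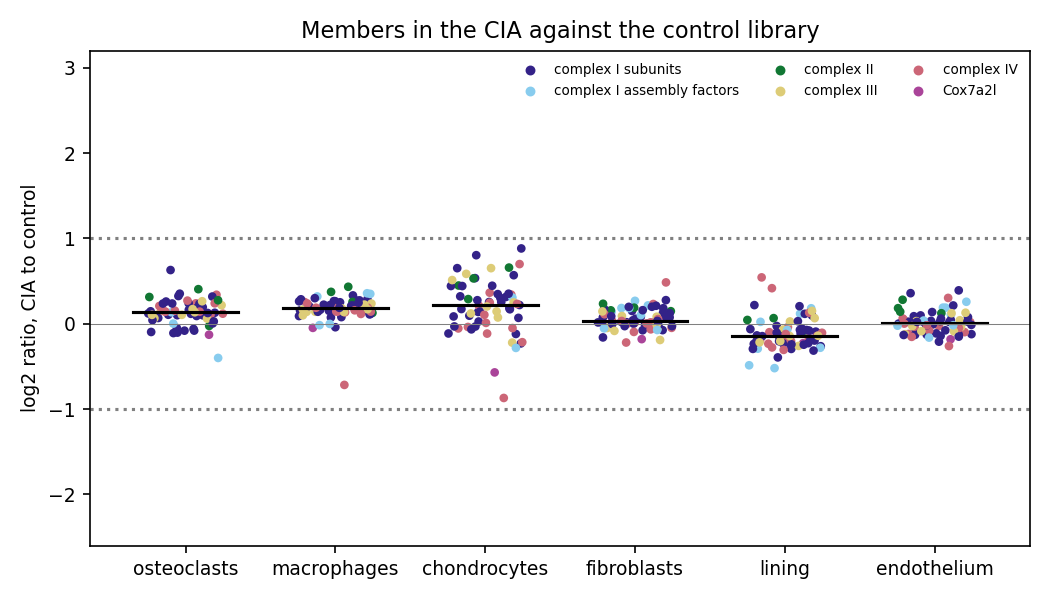
Log2 ratio of the CIA to the control library (y axis) for each measured member in each cell type (x axis), coloured by complex, with black lines at the median of the members and dotted lines at 2-fold. All points lie between the dotted lines, and the medians run from 0.22 in chondrocytes to -0.14 in lining cells.

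Of 60 members measured in all 6 types, 7 had a CIA to control ratio above 1 in every type, near the 12.1% of all 2741 genes measured there. Among them were Ndufs3 and Ndufs4 of complex I, Sdhc and Sdhd of complex II, and Uqcrc2 and Uqcrfs1 of complex III. Sdhc stood at 178 CPM in control and 240 in CIA macrophages, a ratio of 1.35 (1.29 to 1.41), and at 350 and 435 CPM in osteoclasts, while its ratio in lining cells was 1.03. The lowest ratio of Ndufs4 was 1.00, and 2 of its 6 intervals lay above 1. Cox7a2l was the 1 member below 1 in all 6 (6.06% of all genes were), from 0.674 (0.506 to 0.881) in chondrocytes to 0.968 (0.937 to 1) in macrophages. It went from 347 to 307 CPM in fibroblasts and from 462 to 408 in endothelium. With TMM factors 5 members were above 1 in all 6 types and 0 below: Ndufs3, Sdhc and Sdhd stayed above, while Ndufs4, Uqcrc2, Uqcrfs1 and Cox7a2l no longer kept 1 side. All 6 types of 1 library share its preparation and its free RNA, so they are not 6 separate observations.

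Ndufs1 was the member with the largest ratio in osteoclasts (65.3 to 101 CPM, 1.55, 1.15 to 2.12) and in endothelium (36.6 to 48.1 CPM, 1.31, 1.12 to 1.54). In macrophages Cox4i2 had the lowest ratio (8.05 to 4.9 CPM, 0.609, 0.478 to 0.776). The 12 chondrocyte markers summed to 219 CPM in control and 17.1 CPM in CIA macrophages, and their part in the Cox4i2 ratio was not tested. In chondrocytes Ndufa9 was highest (51 to 94.2 CPM, 1.84, 1.17 to 2.8) and Ndufa4l2 lowest (371 to 203 CPM, 0.547, 0.409 to 0.718). In fibroblasts and lining cells Ndufa4l2 was instead the highest, with ratios of 1.4 (1.34 to 1.46) and 1.46 (1.37 to 1.55). Ndufaf8 was the lowest in lining cells, at 66.6 and 46.5 CPM (0.698, 0.6 to 0.813).

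Other mitochondrial pathways were read beside the chain. Of all measured genes, 8.37% (control) and 8.09% (CIA) were higher in osteoclasts than in macrophages. In osteoclasts against macrophages, 8 of 16 measured ATP synthase genes were higher in the control and 5 of 17 in the CIA library, among them Atp5f1b and Atp5mc3. Of the 14 citrate cycle genes, 9 were higher in each library, with Idh3a and Sucla2 among them. Of the 8 genes for electron carriers and exchange, 4 and 5 were higher, including Cycs (cytochrome c) and Slc25a4, the ADP/ATP carrier. The mitochondrial ribosome was less marked, with 13 of 71 and 9 of 72. Glycolysis was mixed: Pfkp and Hk1 were higher and Hk2 lower in both libraries. Of the listed regulators of mitochondrial biogenesis, 2 of 11 and 4 of 13 were higher, Esrra and Hif1a in both libraries and Ppargc1b in the CIA library. That list does not separate activators from repressors, so its counts give no direction for biogenesis.

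Between the libraries few genes of these lists passed the rule. In osteoclasts 0 of 16 ATP synthase and 0 of 14 citrate cycle genes passed the rule of size. Of 11 glycolysis genes 1 did, the glucose transporter Slc2a1, which was higher in the CIA library. Of all genes measured in osteoclasts 2.85% passed in either direction, so a count of 0 in lists this short is near that share. The mitochondrially encoded sum was 0.9-fold that of control in osteoclasts, 0.849-fold in fibroblasts and 0.866-fold in lining cells, while the nuclear sum in those types was 1.12, 1.02 and 0.913. The glycolysis sum was 1.42-fold in osteoclasts and 1.44-fold in macrophages, against nuclear chain sums of 1.12 and 1.14.

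Markers of other cell types in the osteoclast gate were counted. The 14 macrophage markers summed to 15340 and 13358 CPM, against 72640 and 89596 in macrophages, and only Cd163 was at 0. The 9 neutrophil lineage markers summed to 1905 CPM in the control osteoclasts and 187 CPM in the CIA osteoclasts, with Elane at 0 in the control and Prtn3 at 0 in the CIA cells. Cells with at least 2 UMIs of a neutrophil gate marker (3 control and 7 CIA osteoclasts) were then left out, and cells below that limit stayed in. With that, 21 control and 22 CIA members were higher than in macrophages, and the chain ratios were 1.80 and 1.78. The 12 chondrocyte markers summed to 214 and 27 CPM, the 9 fibroblast markers to 6763 and 3962 CPM, and muscle markers to 0 and 4.65 CPM.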

How the data were processed

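Single-cell RNA was measured in 2 libraries, 1 per group. The authors deposited unnormalised UMI counts for each cell, as 1 matrix per library. The labels' protocols name a Chromium 3' kit of version 2, but the barcodes are not built like that kit's, so the chemistry is uncertain. The submitters' processing notes name the build mRatBN7.2. Not given in the sources used here: aligner, counting tool and strand. No deposited file names the cell types.

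Cells below 200 genes or above 20% mitochondrial UMIs were dropped, and doublets called by Scrublet (scanpy 1.11.5) were removed. The totals were 76927821 UMIs in the control and 105752977 in the CIA library, and no cell had fewer than 4365. Cells were gated by markers: at least 2 UMIs in each of 3 markers of a type (2 for fibroblasts and lining cells, the latter also with Prg4 at 10000 CPM or more), with osteoclasts taken before macrophages, chondrocytes before lining cells and those before fibroblasts. The scoring rule was set after the markers' levels had been seen. At the gates' edge, 7 control and 9 CIA osteoclasts had exactly 3 markers, and 36 and 51 other cells were 1 marker short. Other cells that passed several gates (75 and 82) were left out.

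Raw UMIs were summed per gate and library and given as CPM over the 18147 genes listed for both. Ratios have exact conditional 95% intervals and levels exact Poisson ones, which cover counting error only. The rule of size was at least 2-fold with the interval beyond 1.5-fold, applied where the 2 sums of a gene added up to 100 UMIs or more. A sum of 0 allows up to 3 counts. No test was run on cells. The NRF1 core was shortened after a longer form had been searched. On simulated data for osteoclasts, CIA against control (3233 genes), the rule called 100% of genes raised 3-fold, 96% of those lowered 3-fold and 0% of unchanged ones. For osteoclasts against macrophages of the CIA library (9159 genes) it called 98%, 76% and 0.02%. The simulated counts held counting error only, with no spread between cells, animals or libraries. These shares are therefore no error rates for the real comparisons. TMM factors (edgeR 4.0.16) and clusters (Leiden, resolution 0.5) served as alternatives.

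Named genes were the isoforms and their partners, the core subunits, up to 10 members past the rule of size and the 3 highest and 3 lowest in a comparison, and the 3 most abundant of each complex. The members, lists and rules were chosen with earlier results of these data known. A few named genes are not reported here.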

Additional observations from a re-analysis of the deposited data

Results flagged for a closer look

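The summed chain level differed between the CIA and control libraries in opposite directions in different cell types. It was higher in the CIA library in chondrocytes (1.16-fold), macrophages (1.14-fold) and osteoclasts (1.12-fold) and lower in lining cells (0.913-fold), each with a counting interval wholly on its side of 1. The difference between the cell types was not tested, since each group has 1 library. The chondrocyte value rests on 23 CIA cells and was 1.02-fold with TMM factors. The macrophage value was 0.884-fold as unscaled UMIs per cell.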

How the results depend on the processing

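Each of 64 results was recomputed under 13 alternatives. Of these, 2 were chosen after seeing the data: without dividing cells, and without cells with at least 2 UMIs of a neutrophil gate marker. No chain sum or isoform ratio past the rule of size crossed 1, and none short of it passed in the opposite direction. Counts of members were labelled only as kept or moved, so they could not reverse. Ratios short of the rule could cross 1 without being labelled as reversed. The control ratio of lining cells to fibroblasts for Ndufa4l2 did so with clusters, from 1.74 to 0.594. In every alternative the osteoclast chain sum exceeded that of each other type, from 1.43 to 3.6 against macrophages. Its place against the rule did change. Among chain sums and isoform ratios, a result fell short of the rule 6 times and newly passed it 12 times. In the CIA library the lowest chain ratios were 1.75 against lining cells, 1.9 against fibroblasts and 1.97 against chondrocytes. In scaled settings the highest were 2.05 against control fibroblasts and 2.54 against CIA endothelium. The numbers of higher members moved by over 1.5 times as follows. With TMM factors they were 7 (control) and 14 (CIA) against macrophages, 28 against control lining cells, and 30 and 50 against endothelium. Without the 50 most abundant genes in the total they were 13 and 8 against macrophages and 21 against CIA lining cells. As unscaled UMIs per cell they were 59 and 69 against macrophages, 57 and 64 against fibroblasts, 48 and 56 against lining cells, 55 and 63 against endothelium and 61 against CIA chondrocytes. With clusters they were 11 against CIA macrophages, 10 against control lining cells and 14 against CIA endothelium. Lower members against CIA chondrocytes were 2 with clusters or a minimum of 20 UMIs, and 1 member was lower against control endothelium with the total without mitochondrial and ribosomal genes, per-cell means, doublets kept or stricter gates.

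Between the libraries 0 members passed the rule in the gated sums. In chondrocytes 1 was higher by per-cell means or without dividing cells, 2 with stricter gates and 3 with clusters, and 1 was lower with TMM factors, per-cell means, unscaled UMIs or without dividing cells. In lining cells 1 was higher with stricter gates and 2 with clusters, in osteoclasts 1 with a minimum of 20 UMIs, and in macrophages 1 was lower unscaled. The CIA to control ratio of the chain sum was below 1 in fibroblasts under 2 alternatives (lowest 0.884) and in macrophages when unscaled (0.884). In chondrocytes that ratio was lowest with TMM factors (1.02). The cause was not tested. No paired analysis was possible because each group has 1 library. The 36 control osteoclasts and 23 CIA chondrocytes are the smallest groups of cells.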

Other observations

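A small group outside the 6 types, gated by mural cell markers (the pericytes and smooth muscle cells of vessel walls), held both Cox4i2 and Ndufa4l2. Cox4i2 stood at 298 CPM (26 UMIs, 9 cells) in the control and 1454 CPM (97 UMIs, 10 cells) in the CIA library. The CIA value was of the order of that of the CIA chondrocytes, and its 97 UMIs are too few to rank it above or below them. Ndufa4l2 stood at 356 CPM (31 UMIs) and 690 CPM (46 UMIs), and Ndufa4 at 643 and 210 CPM. With so few cells these are values of those cells alone.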
